A study of Mus musculus with 2 samples.

Results

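The 46 genes described here drive the cell division cycle or copy and repair DNA, and they were chosen by symbol and matched to the Ensembl gene ids of a table of 42422 genes. They were kept in 3 classes, with 12 G1 regulators (D- and E-type cyclins, Cdk2 and Cdk4, the inhibitors Cdkn1a and Cdkn2c, E2f1, E2f8 and Myc), 15 S phase genes (Mcm2 to Mcm7, licensing factors, nucleotide synthesis enzymes and others) and 19 G2/M genes (mitotic cyclins, kinases, spindle, checkpoint and kinetochore proteins). Of the 46 members, 45 passed the filter on low counts and were tested among 15125 genes. The exception was Kif11, a mitotic spindle motor of the G2/M class, whose group means lay between 0.236 and 1.79 CPM (counts scaled to the same library total).

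The libraries were made from gonadal somatic cells of mouse embryos. Gonads with the attached mesonephros were taken at E12.5 (mid-gestation, soon after sex determination) from wild-type embryos of a Swiss by 129svJT2 cross that carried the Oct4-eGFP reporter, which is active in germ cells, and after removal of the mesonephros the GFP-negative cells were sorted from pooled gonads. There were 10 groups of 4 libraries each, 40 in all: uncultured XX and XY gonads of E12.5, gonads of each sex kept for 24 h or 72 h with the vehicle DMSO, and XY gonads after 24 h or 72 h with 500 nM of the FGF receptor inhibitor BGJ398 (FGFRi) or 500 nM of the MEK1/2 inhibitor PD0325901 (MEKi). No XX gonads were treated with an inhibitor. The comparisons asked how blocking either signal after sex determination altered the somatic cells of the testis, and how XX and XY gonads differed.

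Libraries held between 1380707 and 4836550 counted molecules, with a median of 2248854. The labels divide them into sets: the E12.5, 24 h DMSO and 24 h MEKi libraries formed set 3, and the 24 h FGFRi libraries and all 72 h libraries formed set 4. The comparison of FGFRi with DMSO at 24 h and the comparisons of DMSO at 72 h with DMSO at 24 h therefore cross the sets, and there set cannot be told apart from treatment or time. Xist, from the inactive X chromosome, was at 601 to 1061 CPM in the 12 XX libraries and at 0 to 5.18 CPM in the 28 XY libraries, and the Y-linked Ddx3y was at 36.5 to 109 CPM in XY and at most 1.28 CPM in XX libraries. The summed level of 8 Sertoli cell markers was 571 to 2433 CPM in XY against 113 to 238 CPM in XX libraries, and that of 8 pre-granulosa cell markers 1286 to 2002 CPM in XX against 138 to 322 CPM in XY libraries. The sorted cells also held other types: 12 germ cell markers summed to between 21.9 and 629 CPM and 8 erythroid markers to between 140 and 18682 CPM. In such bulk samples fewer cells of a type and less RNA per cell cannot be told apart.

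In a dividing cell, growth signals that pass through receptor kinases, MEK and ERK raise the D-type cyclins, which with Cdk4 begin to inactivate the retinoblastoma protein and free E2F factors. E2F factors then switch on the E-type cyclins and the genes that license origins, make nucleotides and copy DNA, while inhibitors such as Cdkn1a (p21) and Cdkn2c (p18) hold the kinases back. Genes for G2 and mitosis come on later through CHR and CCAAT promoter elements, which the MuvB complex and NF-Y bind, and the early gonad is a growing organ in which Sertoli cells of the testis divide quickly.

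As a summary of each class, the mean log2 CPM over its tested members was taken in every library. The G2/M class stood highest in XY gonads at E12.5, at 6.83 to 7.0, and after 24 h in DMSO it was at 5.86 to 6.21. After 72 h in DMSO it was at 6.33 to 6.49 in XY gonads. XX gonads were lower throughout, at 5.80 to 6.07 before culture, 5.31 to 5.60 at 24 h and 5.30 to 5.76 at 72 h, so that XX and XY libraries of one time did not overlap at any of the 3 times.

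For the S class the same levels were 6.87 to 6.95 in XY and 6.37 to 6.56 in XX gonads at E12.5. At 24 h they were 6.37 to 6.49 and 6.14 to 6.35, and at 72 h 6.47 to 6.55 and 5.84 to 6.09, again without overlap between the sexes. The G1 class level, which includes the inhibitors Cdkn1a and Cdkn2c, overlapped between the sexes, with 5.64 to 5.90 in XY and 5.30 to 5.76 in XX gonads at E12.5. Each of the 15 S genes and each of the 19 G2/M genes had its highest group mean in XY gonads at E12.5. The lowest group mean fell in XX gonads at 72 h for 13 of the 15 S genes, whereas the lowest group of the G2/M genes was XX at 24 h for 7, XX at 72 h for 6, XY FGFRi at 24 h for 4, and XX at E12.5 for Bub1b and XY MEKi at 24 h for Cdc20.

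**Figure D1:**
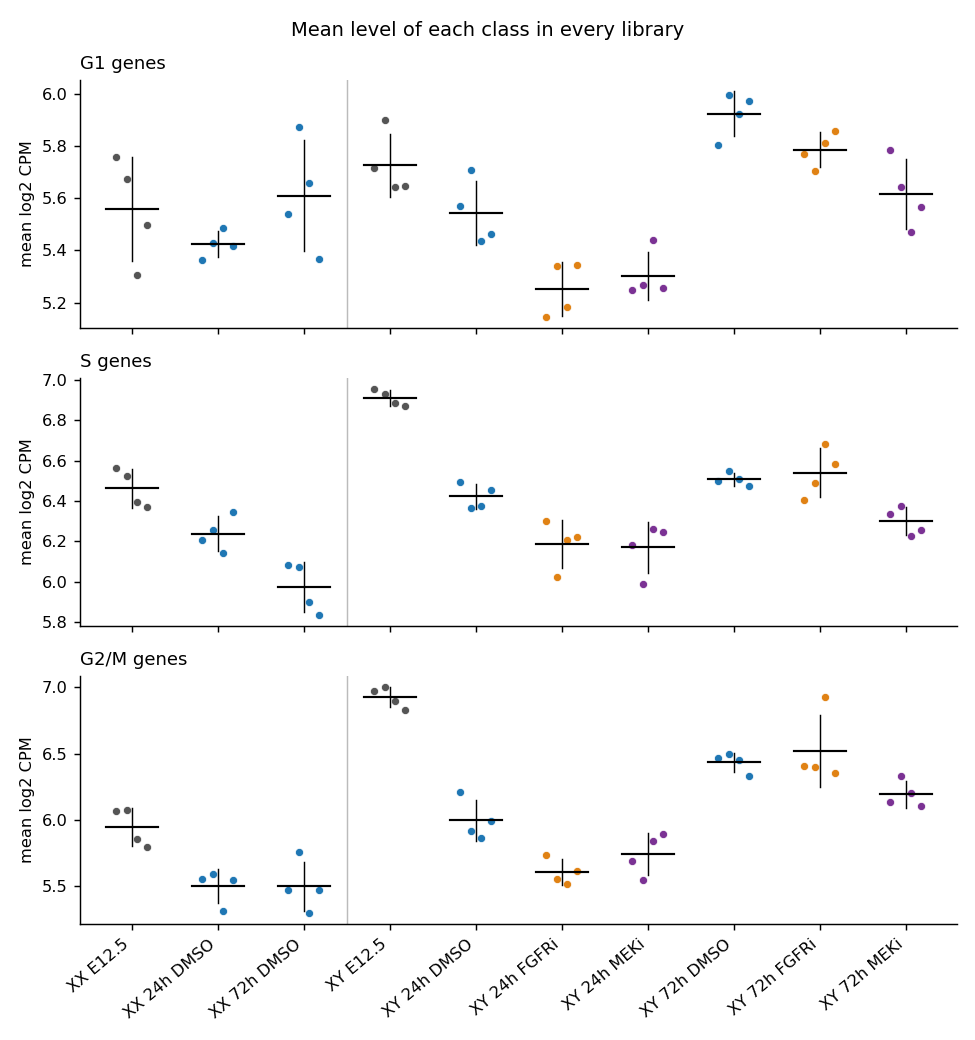
Mean log2 CPM of the tested members of the G1, S and G2/M classes in each of the 40 libraries, by group; points are libraries and bars the group mean. XY gonads at E12.5 hold the highest S and G2/M levels, and the XX libraries lie below the XY DMSO libraries of the same time in both classes.

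With inhibitors, at 72 h the G2/M level was 6.10 to 6.33 with MEKi and 6.35 to 6.93 with FGFRi, against 6.33 to 6.49 in DMSO, and the S level was 6.23 to 6.38 with MEKi and 6.41 to 6.68 with FGFRi, against 6.47 to 6.55. The G1 level was 5.47 to 5.79 with MEKi and 5.70 to 5.86 with FGFRi, against 5.80 to 6.0. At 72 h the S and G1 levels with MEKi lay below every DMSO library, while the G2/M ranges met at 6.33. At 24 h the S level was 5.99 to 6.26 with MEKi and 6.02 to 6.30 with FGFRi, below the 6.37 to 6.49 of DMSO. The G2/M level then was 5.55 to 5.89 with MEKi and 5.52 to 5.74 with FGFRi, against 5.86 to 6.21 in DMSO. For G1 it was 5.25 to 5.44 with MEKi and 5.15 to 5.34 with FGFRi, against 5.43 to 5.71. In these classes FGFRi libraries lay below DMSO libraries at 24 h and MEKi libraries overlapped them. For FGFRi at 24 h, treatment and set cannot be told apart.

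In what follows, a gene was called when edgeR's quasi-likelihood test gave an adjusted p (FDR) under 0.05 over all 15125 genes and the fold change was at least 1.5. Differences are log2 fold changes with their standard error (SE), and levels are CPM. Beside the counts of called members stands the share of all tested genes called in the same direction. Libraries of 2 groups can also lie fully apart. All MEKi libraries lay below all DMSO libraries for 4.77% of tested genes at 24 h and 8.24% at 72 h. With FGFRi this held for 5.27% and 3.65%, and at 72 h FGFRi libraries lay above DMSO for 3.75%. MEKi libraries lay below FGFRi libraries at 72 h for 7.74%.

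The G1 gene that moved with both inhibitors was Ccnd1, which encodes cyclin D1, the D-type cyclin best known as a target of growth factor and ERK signals (ENSMUSG00000070348.5, GRCm39 chr7:144483668-144493662, minus strand). In XY gonads it was at 92.0, 222, 85.6 and 90.6 CPM after 24 h in DMSO, at 69.0, 69.1, 85.3 and 44.2 CPM with MEKi and at 60.6, 49.4, 45.1 and 42 CPM with FGFRi. All 8 treated libraries lay below the 4 DMSO libraries, of which M3, at 222 CPM, stood apart. At 72 h Ccnd1 was at 79.3, 85.0, 177 and 87.6 CPM in DMSO, at 52.1, 40.9, 27.3 and 32.9 CPM with MEKi and at 36.8, 47.4, 24.0 and 47.8 CPM with FGFRi. Again every treated library was below every DMSO library, DMSO library M5 stood apart at 177 CPM, and the libraries of the inhibitors overlapped each other.

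The log2 fold change of Ccnd1 with MEKi was −0.87 (SE 0.246, FDR 0.0267) at 24 h and −1.49 (SE 0.266, FDR 0.000104) at 72 h. With FGFRi it was −1.45 (SE 0.266, FDR 0.000786) at 72 h, and −1.33 (SE 0.256, FDR 0.000542) at 24 h, where treatment and set cannot be told apart. The fall at 72 h was called without each library in turn, with log2 fold changes between −1.66 and −1.14 for MEKi and between −1.58 and −1.10 for FGFRi. With limma's treat, which tests against the fold of 1.5 itself, Ccnd1 was not called with either inhibitor at 24 h or 72 h. The fall with MEKi at 24 h was −0.41 without DMSO library M3 and was then not called. It was also not called without MEKi library M1, M2 or M6, nor with DESeq2 or with the replicate label as a block. The change of the MEKi effect on Ccnd1 from 24 h to 72 h, −0.61 (SE 0.363, FDR 0.472), was not called. With the replicate label as a block, an alternative chosen after seeing the data, it was −1.51 (FDR 0.0698), again not called.

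Ccnd1 was at 173, 173, 143 and 117 CPM in XY gonads at E12.5 and at 113, 124, 120 and 96.9 CPM in XX gonads, and these ranges met. XX gonads in DMSO held 70.4, 136, 74.5 and 68.8 CPM at 24 h and 91.0, 121, 74.1 and 71.0 CPM at 72 h. Ccnd1 was not called between XX and XY gonads at any time, nor between any times of culture.

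Cdkn1a, the gene of the p21 inhibitor of cyclin-dependent kinases, had the largest difference between XX and XY gonads of any tested member at E12.5 (ENSMUSG00000023067.14, GRCm39 chr17:29309936-29319701, plus strand). At E12.5 it was at 196, 193, 209 and 214 CPM in XX and at 26.7, 25.6, 16.7 and 14.8 CPM in XY gonads. After 24 h in DMSO the values were 89.7, 117, 108 and 100 CPM in XX and 28.9, 18.9, 28.4 and 32.3 CPM in XY gonads, and after 72 h they were 46.7, 54.0, 40.7 and 35.7 CPM in XX and 22, 36.3, 24.9 and 27.6 CPM in XY gonads. The sexes were far apart at E12.5, closer at 24 h and touched at 72 h, where the lowest XX library was below the highest XY library.

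The XX excess of Cdkn1a was 3.29 (SE 0.195, FDR 5.98e-20) at E12.5, 1.95 (SE 0.178, FDR 2.71e-13) at 24 h and 0.70 (SE 0.200, FDR 0.00526) at 72 h, the last lost without XX library F7 (0.57 to 0.86 over the 8 fits). From E12.5 to 24 h this difference itself shrank by a log2 value of −1.34 (SE 0.266, FDR 0.000458). Within XX gonads Cdkn1a fell by 0.96 (FDR 1.33e-05) on the log2 scale over the first 24 h and by 1.22 (FDR 9.76e-07) from 24 h to 72 h, where time and set cannot be told apart. In XY gonads in DMSO it was not called between any times.

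With inhibitors Cdkn1a was at 27.4, 47.2, 22.3 and 21.4 CPM (MEKi, 24 h) and 21.2, 32.2, 23.2 and 17.5 CPM (FGFRi, 24 h), which overlapped DMSO. At 72 h it was at 48.9, 47.4, 64.8 and 41.1 CPM with FGFRi and 29.4, 28.7, 40.2 and 25.9 CPM with MEKi. Every FGFRi library at 72 h was above every DMSO and every MEKi library. Cdkn1a rose with FGFRi by 0.89 (SE 0.196, FDR 0.00646) over DMSO at 72 h and by 1.13 (SE 0.204, FDR 6.89e-05) over FGFRi at 24 h, and it was lower with MEKi than with FGFRi at 72 h (−0.69, SE 0.191, FDR 0.0128). The first of these calls was lost without DMSO library M2 (log2 fold changes without any 1 library, 0.74 to 1.05) or FGFRi library M5, and the last without FGFRi library M5 (−0.86 to −0.54). With MEKi, Cdkn1a differed from DMSO by 0.09 (SE 0.203, FDR 0.903) at 24 h and 0.20 (SE 0.205, FDR 0.571) at 72 h.

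2 more G1 genes fell with MEKi at 72 h. E2f8, an E2F family repressor that is itself switched on at the G1/S boundary (ENSMUSG00000046179.17, GRCm39 chr7:48516176-48531452, minus strand), was at 19.7, 20.9, 22.4 and 12.4 CPM in DMSO, at 12.3, 9.17, 6.91 and 7.01 CPM with MEKi and at 9.21, 16.6, 17.2 and 15.1 CPM with FGFRi. The MEKi libraries lay just below the lowest DMSO library and the FGFRi libraries overlapped both. Its log2 fold change with MEKi was −1.10 (SE 0.265, FDR 0.00424) at 72 h, called without each library in turn, and −0.81 (SE 0.279, FDR 0.0888) at 24 h. At 24 h E2f8 was at 12.8, 17.6, 10.5 and 7.39 CPM in DMSO, at 8.31, 4.65, 7.54 and 6.84 CPM with MEKi and at 9.60, 5.95, 6.83 and 8.30 CPM with FGFRi.

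Ccne2, the cyclin E2 gene that partners Cdk2 at the start of replication (ENSMUSG00000028212.16, GRCm39 chr4:11190303-11204947, plus strand), was at 39, 44.7, 30.4 and 35.2 CPM in DMSO and at 28.4, 26.8, 16.6 and 27.0 CPM with MEKi at 72 h. The groups did not overlap, and MEKi library M4 was the lowest by far. The log2 fold change was −0.62 (SE 0.190, FDR 0.0259), and the call was lost without DMSO library M2 or M4 or without MEKi library M4, with −0.70 to −0.46 over the 8 fits. With FGFRi Ccne2 was at 39.7, 19.9, 36.9 and 32.3 CPM at 72 h, and at 24 h it was at 30.7, 29.3, 24.9 and 33.4 CPM in DMSO, 28.4, 25.2, 29.1 and 28.7 CPM with MEKi and 26.8, 32.7, 27.8 and 24.0 CPM with FGFRi, all overlapping. Ccnd2, the cyclin D2 gene, differed with MEKi at 72 h by −0.53 (SE 0.0972, FDR 0.000137), which passed the FDR but not the fold. Its levels were 680, 626, 614 and 683 CPM with MEKi against 833, 985, 992 and 955 CPM in DMSO, without overlap.

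**Figure D2:**
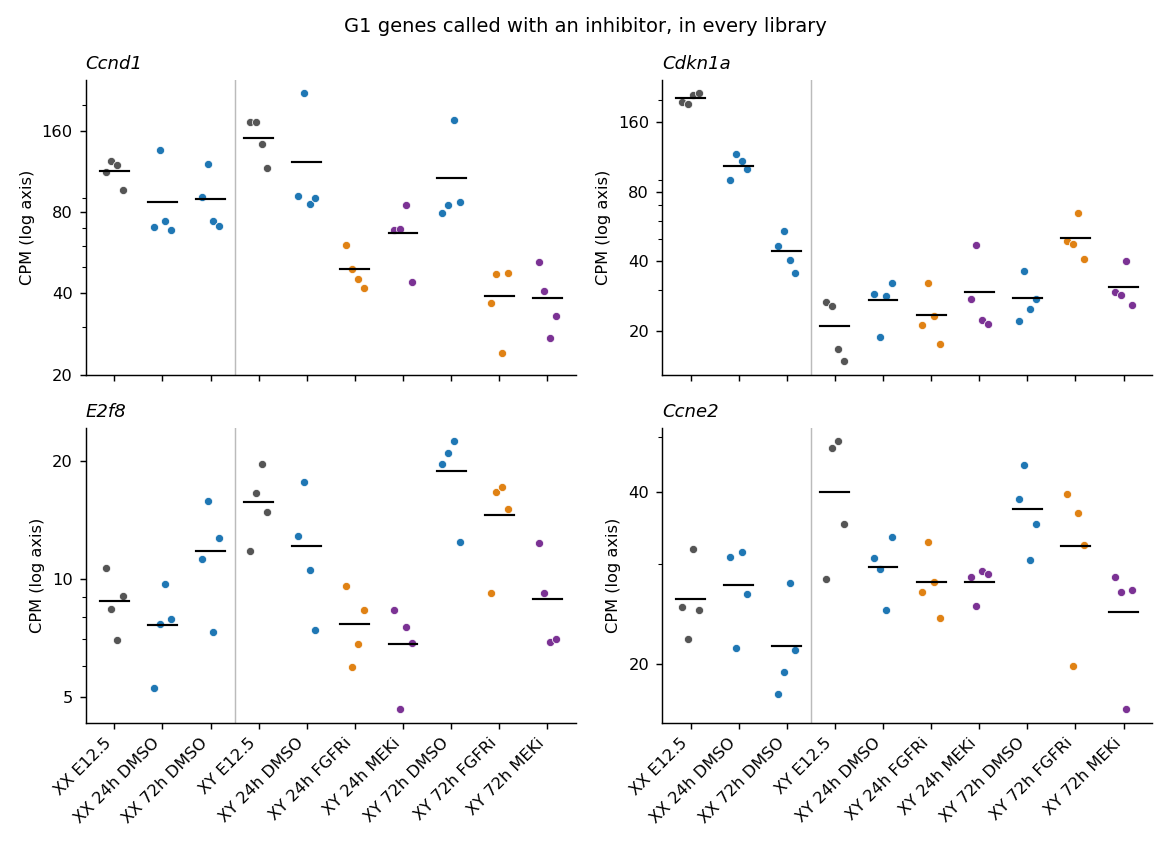
CPM on a log axis of Ccnd1, Cdkn1a, Ccne2 and E2f8, the G1 genes called in a comparison of an inhibitor with DMSO, in each library by group; points are libraries and bars the group mean. Every treated Ccnd1 library lies below its DMSO libraries, and Cdkn1a in XX gonads steps down from 193 to 214 CPM at E12.5 to 35.7 to 54.0 CPM at 72 h.

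Counted over the class, MEKi at 24 h lowered 1 of the 12 G1 members and raised 0, with 3 at an unadjusted p under 0.05, against a background of 1.98% of all genes lower and 1.29% higher. MEKi at 72 h lowered 3 and raised 0 (background 4.19% and 2.29%), with 5 at an unadjusted p under 0.05. FGFRi at 72 h lowered 1 and raised 1 (0.939% and 0.866%). FGFRi at 24 h lowered 1, Ccnd1, and raised 0 (1.59% and 1.69%), with 5 at an unadjusted p under 0.05, and there treatment and set cannot be told apart. MEKi against FGFRi at 72 h gave 1 lower and 0 higher (4.69% and 1.74%). The 12 members' medians were −0.19 (MEKi, 24 h), −0.21 (MEKi, 72 h), −0.11 (FGFRi, 72 h) and −0.25 (FGFRi, 24 h), beside medians over all genes within 0.01 of 0. No G1 member had a changed MEKi effect between 24 h and 72 h (background 0.555% higher and 0.853% lower), with 3 at an unadjusted p under 0.05.

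Between the sexes, 3 G1 genes were lower in XX gonads and 1, Cdkn1a, was higher at each time. The background was 9.32% lower and 8.01% higher at E12.5, 10.3% and 9.24% at 24 h, and 10.8% and 9.47% at 72 h. Called or not, 10, 8 and 8 of the 12 members were lower in XX gonads at the 3 times. Their medians were −0.31, −0.13 and −0.21. E2f1, the founding E2F activator, was lower in XX gonads throughout, by −1.22 (SE 0.277, FDR 0.000522) at E12.5, −0.85 (SE 0.245, FDR 0.00622) at 24 h and −1.06 (SE 0.264, FDR 0.00135) at 72 h. Its levels were 12, 16.3, 3.87 and 6.78 CPM in XX against 24.1, 23.3, 25.3 and 22.2 CPM in XY gonads at E12.5, with no overlap then or later. The XX libraries were the more scattered at E12.5, and at 72 h E2f1 was at 6.5 to 17.8 CPM in XX against 18.5 to 31.9 CPM in XY gonads.

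E2f8 was also lower in XX gonads at E12.5 (−0.81, FDR 0.0261) and 24 h (−0.70, FDR 0.0440), and Ccne2 at E12.5 (−0.65, FDR 0.00936) and 72 h (−0.80, FDR 0.00101). Of these, the Ccne2 call at 72 h held without each library, while the others were lost without 3 to 5 of the 8 libraries. Cdkn2c, the p18 inhibitor of Cdk4 and Cdk6, had few counts: 7 molecules over the 4 XX libraries at 24 h against 61 over the 4 XY libraries. Scaled for depth, the XX level was 0.146 of the XY level (95% interval 0.0563 to 0.319, counting error only). At 72 h it was 45 against 98 molecules, or 0.461 of the XY level (0.316 to 0.662), a call lost without any 1 of 5 libraries. From 24 h to 72 h Cdkn2c rose 8.13-fold in XX gonads (3.64 to 21.4), across the sets.

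Time in culture moved a few G1 genes. In XY gonads Ccne1, the cyclin E1 gene, fell by 0.99 on the log2 scale (SE 0.280, FDR 0.00666) over the first 24 h, 1 of 12 lower and 0 higher against a background of 5.5% and 8.9%. In XX gonads Cdkn1a alone fell (background 2.27% lower and 5.46% higher). From 24 h to 72 h Myc, the growth-related transcription factor, rose in DMSO by 1.34 (FDR 2.7e-05) in XY and 1.53 (FDR 3.09e-06) in XX gonads. Myc went from 16.7 to 18.2 CPM to 36.8 to 53.3 CPM in XY libraries, and from 14.1 to 20.3 CPM to 40.9 to 52.8 CPM in XX libraries. With Cdkn2c, whose call in XY gonads was lost without any 1 of 5 libraries, this made 2 of 12 higher and 0 lower in XY gonads (background 4.24% and 3.03%), and 2 higher and 1 lower in XX gonads (4.97% and 3.17%), and in both time and set cannot be told apart.

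Within set 4, FGFRi at 72 h against FGFRi at 24 h raised 4 of the 12 G1 members and lowered 0 (background 4.38% and 2.33%). These were Cdkn2c (2.00, FDR 0.00428), Cdkn1a, Ccne1 (1.07, FDR 0.0302) and E2f8 (0.93, FDR 0.0254). Cdkn2c and Cdkn1a were called without each library in turn, while the Ccne1 and E2f8 calls were each lost without any 1 of 5 libraries. The change of the sex difference from E12.5 to 24 h was called for 1 of 12 G1 members, Cdkn1a, in the lower direction (background 2.69% lower and 3.51% higher).

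The S genes are shown first by their promoters. S and G2/M genes each moved largely together between groups, and the part of promoter motifs in this was not tested. RefSeq promoter windows of GRCm38.p6, from 250 bases before to 50 bases after the start, were found for 37 of the 46 members and for 27025 genes in all. They were searched on both strands for an E2F-type motif (TTTNNCGC), the CHR element (TTTGAA) and the CCAAT box (CCAAT), none of which contains another. An E2F-type motif was found in 8 of 13 S promoters (61.5%), 1 of 16 G2/M promoters (6.25%) and 1 of 8 G1 promoters, beside 5.27% of all promoters. The windows of Mcm3, a subunit of the replicative helicase, and Cdc6, which loads that helicase at origins, are printed as examples of S windows with an E2F-type match, while the windows of Ung and Rrm2 held none. They are given 5′ to 3′ on the gene's strand with the matches to the motifs, on either strand, in capitals.
Mcm3, chr1:20820263-20820562, minus strand: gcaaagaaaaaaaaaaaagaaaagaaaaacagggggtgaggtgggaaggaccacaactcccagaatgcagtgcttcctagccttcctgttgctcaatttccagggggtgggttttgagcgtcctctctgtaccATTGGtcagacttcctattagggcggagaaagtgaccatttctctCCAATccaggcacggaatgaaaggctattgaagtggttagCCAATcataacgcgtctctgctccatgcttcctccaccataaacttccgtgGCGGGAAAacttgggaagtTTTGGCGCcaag
Cdc6, chr11:98907901-98908200, plus strand: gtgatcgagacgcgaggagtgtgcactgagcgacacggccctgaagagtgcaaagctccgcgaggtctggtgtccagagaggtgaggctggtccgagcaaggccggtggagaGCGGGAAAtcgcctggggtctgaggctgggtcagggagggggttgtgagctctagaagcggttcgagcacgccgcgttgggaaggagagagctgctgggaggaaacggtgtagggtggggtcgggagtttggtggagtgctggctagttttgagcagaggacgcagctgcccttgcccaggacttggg
The Mcm3 window held 2 E2F-type matches and 3 CCAAT boxes and the Cdc6 window 1 E2F-type match and no CCAAT box. These are matches of letters, not measured binding sites.

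No S gene was called with MEKi against DMSO at either time, beside backgrounds of 1.98% and 4.19% lower and 1.29% and 2.29% higher. At 24 h all 15 had a negative log2 fold change, with a median of −0.25, 8 at an unadjusted p under 0.05 and 1, Mcm7, at an FDR under 0.05. At 72 h 14 of 15 were negative, with a median of −0.13, 5 at an unadjusted p under 0.05 and 4 at an FDR under 0.05. Mcm7, another helicase subunit, was at 140, 119, 140 and 142 CPM with MEKi against 185, 165, 179 and 187 CPM in DMSO at 24 h, with no overlap and a log2 fold change of −0.40 (SE 0.100, FDR 0.00957). At 72 h Mcm7 was at 154, 159, 122 and 136 CPM with MEKi and at 153, 166, 161 and 151 CPM in DMSO, and the groups overlapped. The Mcm7 gene overlaps Mir25 and Mir93.

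Ung, the uracil DNA glycosylase that removes uracil from DNA, was at 28.0, 35.5, 27.0 and 34.0 CPM with MEKi, 37.0, 48.2, 49.4 and 46.2 CPM in DMSO and 46.6, 52.3, 64.8 and 59.1 CPM with FGFRi at 72 h. MEKi libraries were the lowest throughout. Ung differed by −0.53 (SE 0.149, FDR 0.0133) from DMSO, below the fold, and by −0.85 (SE 0.145, FDR 2.9e-05) from FGFRi, a call that held without each library. At 24 h Ung was at 54.8, 47.2, 49.0 and 54.7 CPM with MEKi and at 62.0, 46.5, 55.7 and 46.7 CPM in DMSO.

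Uhrf1, which carries DNA methylation through replication, was at 108, 122, 78.8 and 102 CPM with MEKi and at 144, 128, 123 and 155 CPM in DMSO at 72 h, with a log2 fold change of −0.43 (SE 0.122, FDR 0.0162). At 24 h its MEKi libraries, 99.3, 86.4, 102 and 103 CPM, overlapped those in DMSO, at 122, 134, 111 and 94.9 CPM. Mcm3 was at 101, 95.2, 87.3 and 80.9 CPM with MEKi against 133, 106, 114 and 110 CPM in DMSO at 72 h (−0.35, SE 0.111, FDR 0.0314). At 24 h it was at 78.2, 66.4, 88.0 and 71.6 CPM against 104, 86.7, 91.0 and 100 CPM (−0.32, SE 0.112, FDR 0.104). At 72 h MEKi libraries lay below all DMSO libraries for both genes, by less than the fold of 1.5, as for 8.24% of all genes. Tyms, thymidylate synthase, was at 86.6, 114, 90.1 and 102 CPM with MEKi and 149, 100, 112 and 154 CPM in DMSO at 24 h, with overlap (−0.39, SE 0.138, FDR 0.102). Tyms has a named pseudogene, and reads shared with it may not all have been counted to the gene.

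FGFRi called no S gene at 72 h, where 9 of 15 were positive with a median of 0.04 and 1 at an unadjusted p under 0.05. It called none at 24 h either, where 14 of 15 were negative, with a median of −0.23, 6 at an unadjusted p under 0.05, and Mcm7 the only one at an FDR under 0.05 (−0.42). The background with FGFRi was 0.939% lower and 0.866% higher at 72 h, and 1.59% and 1.69% at 24 h. At 24 h treatment and set cannot be told apart for FGFRi. In the direct comparison at 72 h, MEKi was lower than FGFRi in 13 of 15 S genes, with a median of −0.22. The called genes were Ung and Cdc6, the latter at 13.7, 25.2, 16.6 and 17.8 CPM with MEKi and 23.0, 32.4, 31.9 and 25.6 CPM with FGFRi (−0.62, SE 0.200, FDR 0.0350). The Cdc6 libraries overlapped, and its call was lost without any 1 of 5 libraries. The background for genes lower in this comparison was 4.69%.

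Between the sexes the S genes split by time. At E12.5 all 15 were lower in XX gonads, with a median of −0.42, 10 at an FDR under 0.05 and 3 called, beside a background of 9.32% lower: Cdc6 (−1.18, SE 0.207, FDR 9.57e-06), Rrm2, the regulated subunit of ribonucleotide reductase (−0.74, SE 0.111, FDR 3.89e-07), and Ung (−0.64, SE 0.138, FDR 0.000277). Cdc6 was at 19.2, 15.5, 13.9 and 13.2 CPM in XX and 41.5, 24.5, 33.9 and 40.0 CPM in XY gonads. Rrm2 was at 83.7, 80.4, 75.9 and 65.2 CPM in XX and 132, 136, 120 and 122 CPM in XY gonads, and neither gene overlapped. The Ung call was lost without XX library F4 or F5. At 24 h none was called, beside a background of 10.3% lower and 9.24% higher. Of the 15, 13 were lower, with a median of −0.21, 7 at an unadjusted p under 0.05 and 5 at an FDR under 0.05.

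At 72 h 6 of 15 S genes were lower in XX gonads and 0 higher, beside a background of 10.8% lower, with a median over the class of −0.56 and 13 at an FDR under 0.05. The falls were greatest for Cdc6 (−1.0, SE 0.213, FDR 0.000195), Uhrf1 (−0.86, SE 0.126, FDR 1.91e-07) and Mcm3 (−0.85, SE 0.115, FDR 3.37e-08), and the other called genes were Cdt1, Tyms and Gins2. Mcm3 was at 62.6, 71.5, 53.8 and 68.1 CPM in XX gonads, where the 4 XY DMSO libraries held 106 to 133 CPM. Cdc6 was at no more than 13.7 CPM in any of the 4 XX libraries and at 22.7, 29.3, 30.9 and 24.3 CPM in XY gonads, again without overlap. The Gins2 call was lost without XX library F11 or XY library M4 or M5, and the Tyms call without XX library F11.

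The change of the sex difference from E12.5 to 24 h was called for 2 S genes, Ung (0.93, SE 0.190, FDR 0.000598) and Rrm2 (0.76, SE 0.156, FDR 0.000661), beside a background of 3.51% higher. Rrm2 at 24 h was at 66.6, 71.5, 66.7 and 73.1 CPM in XX and 69.2, 63.4, 69.7 and 73.1 CPM in XY gonads and the groups overlapped. Ung at 24 h was at 63.4, 65.6, 53.2 and 75.9 CPM in XX against 62.0, 46.5, 55.7 and 46.7 CPM in XY gonads, where at E12.5 it had been at 59.4, 55.7, 42.6 and 44.9 CPM against 80, 87.1, 80.3 and 70.4 CPM. Both changes were called without each library in turn.

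In XY gonads 6 of 15 S genes fell over the first 24 h of culture and 0 rose, beside a background of 5.5% lower, and the class median was −0.57. Rrm2 fell by 0.89 (SE 0.108, FDR 5.98e-09) and Mcm3 by 0.69 (SE 0.108, FDR 1.84e-06) on the log2 scale, and Gins2, Cdc6, Uhrf1 and Ung were the others, each lost without 1 library or more (Gins2 without E12.5 M3, Cdc6 without E12.5 M2, Uhrf1 without 24 h M5, and Ung without E12.5 M3 or 24 h M3 or M5). Mcm3 went from 158, 179, 144 and 136 CPM to 104, 86.7, 91.0 and 100 CPM. Scaling by total counts alone put the median of all genes at 0.16 in this comparison, against 0.03 otherwise, and 1 of the 6 S genes, Rrm2, was then called. In XX gonads 1 of 15 fell, Gins2, part of the helicase complex (−0.69, SE 0.167, FDR 0.00290), with a class median of −0.25 and a background of 2.27% lower.

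From 24 h to 72 h with FGFRi all 15 S genes were positive, with a median of 0.34 and 7 at an FDR under 0.05. Of the 15, Cdc6 was called (0.73, SE 0.206, FDR 0.0144), beside a background of 4.38% higher. This call was lost without any 1 of 4 libraries. In DMSO none was called, beside backgrounds of 4.24% higher and 3.03% lower in XY and 4.97% and 3.17% in XX gonads. In XY gonads 4 were at an unadjusted p under 0.05 and the median was 0.09. In XX gonads all 15 were negative, with a median of −0.27 and 8 at an unadjusted p under 0.05. The MEKi effect on S genes did not change by a called amount from 24 h to 72 h, with 1 at an unadjusted p under 0.05. The background was 0.555% higher and 0.853% lower.

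The G2/M promoters held the other motifs. A CHR element was found in 11 of 16 G2/M windows (68.8%) against 1 of 13 S (7.69%), 1 of 8 G1 and 18.1% of all windows. A CCAAT box was in 14 of 16 G2/M windows (87.5%), 9 of 13 S (69.2%), 2 of 8 G1 (25%) and 37.9% of all windows. Shown with matches in capitals are Plk1, a mitotic kinase, Cenpf, a kinetochore protein, and Cdk1, the kinase that starts mitosis, whose window was the only one of the 16 with an E2F-type match.
Plk1, chr7:122159185-122159484, plus strand: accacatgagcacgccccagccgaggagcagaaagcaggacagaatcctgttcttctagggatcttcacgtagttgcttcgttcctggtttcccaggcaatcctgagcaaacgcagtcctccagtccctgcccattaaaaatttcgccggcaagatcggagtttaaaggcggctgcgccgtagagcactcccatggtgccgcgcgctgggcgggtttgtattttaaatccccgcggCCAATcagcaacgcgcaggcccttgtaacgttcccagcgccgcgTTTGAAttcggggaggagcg
Cenpf, chr1:189688037-189688336, minus strand: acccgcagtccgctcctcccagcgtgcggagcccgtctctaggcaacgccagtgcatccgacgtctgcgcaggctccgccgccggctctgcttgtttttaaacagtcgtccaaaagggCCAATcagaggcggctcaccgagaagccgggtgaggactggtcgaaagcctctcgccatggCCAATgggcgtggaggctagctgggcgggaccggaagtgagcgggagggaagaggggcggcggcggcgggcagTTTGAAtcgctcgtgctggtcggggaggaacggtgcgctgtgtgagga
Cdk1, chr10:69352863-69353162, minus strand: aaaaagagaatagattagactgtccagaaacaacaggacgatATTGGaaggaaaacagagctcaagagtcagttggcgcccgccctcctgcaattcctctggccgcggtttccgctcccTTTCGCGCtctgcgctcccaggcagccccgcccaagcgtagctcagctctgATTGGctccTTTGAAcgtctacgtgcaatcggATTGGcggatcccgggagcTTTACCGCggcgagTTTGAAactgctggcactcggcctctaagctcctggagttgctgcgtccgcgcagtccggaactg
Plk1 held 1 CHR element and 1 CCAAT box, Cenpf 1 and 2, and Cdk1 2 and 3, with 2 E2F-type matches. The table held no window for Aurkb, Ccna2, Ccnd1, Ccnd2, Ccne2, Gins2, Mcm4, Myc and Tpx2.

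With MEKi at 24 h no G2/M gene was called, beside a background of 1.98% lower and 1.29% higher, and none had an FDR under 0.05. Of the 18, 7 were at an unadjusted p under 0.05, and DESeq2 called none. All but 1 of the 18 were negative, with a median of −0.23. Ccna2, the cyclin A2 gene, was at 35.2, 37.9, 54.5 and 52.4 CPM with MEKi and 77, 54.9, 56.1 and 72.3 CPM in DMSO (−0.50, SE 0.161, FDR 0.0615). Cdc20, an activator of the anaphase-promoting complex, was at 31.3, 25.9, 37.0 and 36.0 CPM with MEKi and 47.4, 42.3, 47.1 and 43.9 CPM in DMSO (−0.45, SE 0.168, FDR 0.123). Mki67, the gene of the Ki-67 proliferation antigen, was at 141, 132, 168 and 152 CPM with MEKi and 208, 250, 172 and 163 CPM in DMSO (−0.41, SE 0.141, FDR 0.0835). Ccna2 and Cdc20 did not overlap between the groups and Mki67 did, and none of the 3 passed the FDR. These 3 were named for the lowest FDR of the class in this comparison. Of all tested genes, 4.77% had every MEKi library below every DMSO library.

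At 72 h MEKi lowered 1 of the 18 G2/M genes, Mki67, and raised 0, beside a background of 4.19% lower. Mki67 was at 188, 230, 195 and 193 CPM with MEKi, 345, 322, 277 and 289 CPM in DMSO and 276, 277, 310 and 265 CPM with FGFRi, so that MEKi libraries lay below all others. Its log2 fold change with MEKi was −0.61 (SE 0.139, FDR 0.00209), close to the fold of 1.5, and the call was lost without DMSO library M2 or MEKi library M2 (−0.69 to −0.55). The class median was −0.22, with 16 of 18 negative, 7 at an unadjusted p under 0.05 and 5 at an FDR under 0.05.

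Cenpe, a kinetochore motor, differed by −0.51 (SE 0.104, FDR 0.000624), at 146, 183, 155 and 119 CPM with MEKi against 224, 211, 203 and 224 CPM in DMSO. Cenpf differed by −0.49 (SE 0.124, FDR 0.00659), at 174, 204, 219 and 178 CPM against 279, 320, 270 and 218 CPM. Cenpe did not overlap and Cenpf did by 1 library, and both were under the fold. At 24 h Cenpe was at 127, 124, 131 and 153 CPM with MEKi and 173, 173, 138 and 151 CPM in DMSO, and Cenpf at 170, 177, 197 and 218 CPM and 240, 186, 159 and 204 CPM. No G2/M gene had a called change of the MEKi effect from 24 h to 72 h, with 1 at an unadjusted p under 0.05. The background was 0.555% higher and 0.853% lower. Ccna2 and Cdc20, the lowest at 24 h, were at 75.4, 96.3, 78.5 and 62.5 CPM and at 52.6, 56.9, 65.6 and 58.8 CPM with MEKi at 72 h, within or near the DMSO libraries, at 82.0, 96.4, 74.8 and 75.7 CPM and 59.6, 65.6, 69.3 and 58.1 CPM.

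FGFRi at 72 h called no G2/M gene, beside a background of 0.939% lower and 0.866% higher, and DESeq2 called none either. Of the 18, 16 were positive, with a median of 0.11 and 1 at an unadjusted p under 0.05. The greatest difference was for Aurka, a centrosomal mitotic kinase (0.48, SE 0.207, FDR 0.255), where FGFRi library M5 was at 41.9 CPM and the others at 22.2 to 24.8 CPM. That library also held the highest Ccna2, 130 CPM against 74.9 to 79.7 CPM, and the highest G2/M level, 6.93. At 24 h FGFRi against DMSO lowered 1 of 18, Cenpf (−0.61, SE 0.127, FDR 0.00161), beside a background of 1.59% lower, with a median of −0.43, 12 at an unadjusted p under 0.05 and 8 at an FDR under 0.05, all 8 negative. Cenpf was at 150, 119, 99.3 and 148 CPM with FGFRi, below the DMSO libraries, but its call was lost without DMSO library M2 or FGFRi library M3 or M4. Mki67 was at 138, 130, 102 and 167 CPM there (−0.56, SE 0.143, FDR 0.0101), and with total counts alone as the scale 5 G2/M genes were called. Treatment and set cannot be told apart in these values.

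When MEKi was set against FGFRi at 72 h, all 18 G2/M genes were lower with MEKi, with a median of −0.36, 10 at an unadjusted p under 0.05 and 5 at an FDR under 0.05. None reached the fold, beside a background of 4.69% of all genes called lower. The nearest was Cenpf (−0.57, SE 0.124, FDR 0.00117), at 280, 256, 366 and 247 CPM with FGFRi. FGFRi library M5 stood apart in G2/M level, at 6.93 against 6.35 to 6.41 in its group. MEKi libraries were at 6.10 to 6.33. The comparisons of MEKi and FGFRi with DMSO at 72 h share their 4 DMSO libraries. Side by side, Mki67 differed from DMSO by −0.61 with MEKi and −0.13 with FGFRi, Cenpe by −0.51 and 0.01, Ung by −0.53 and 0.32, and Ccnd1 by −1.49 and −1.45.

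**Figure D3:**
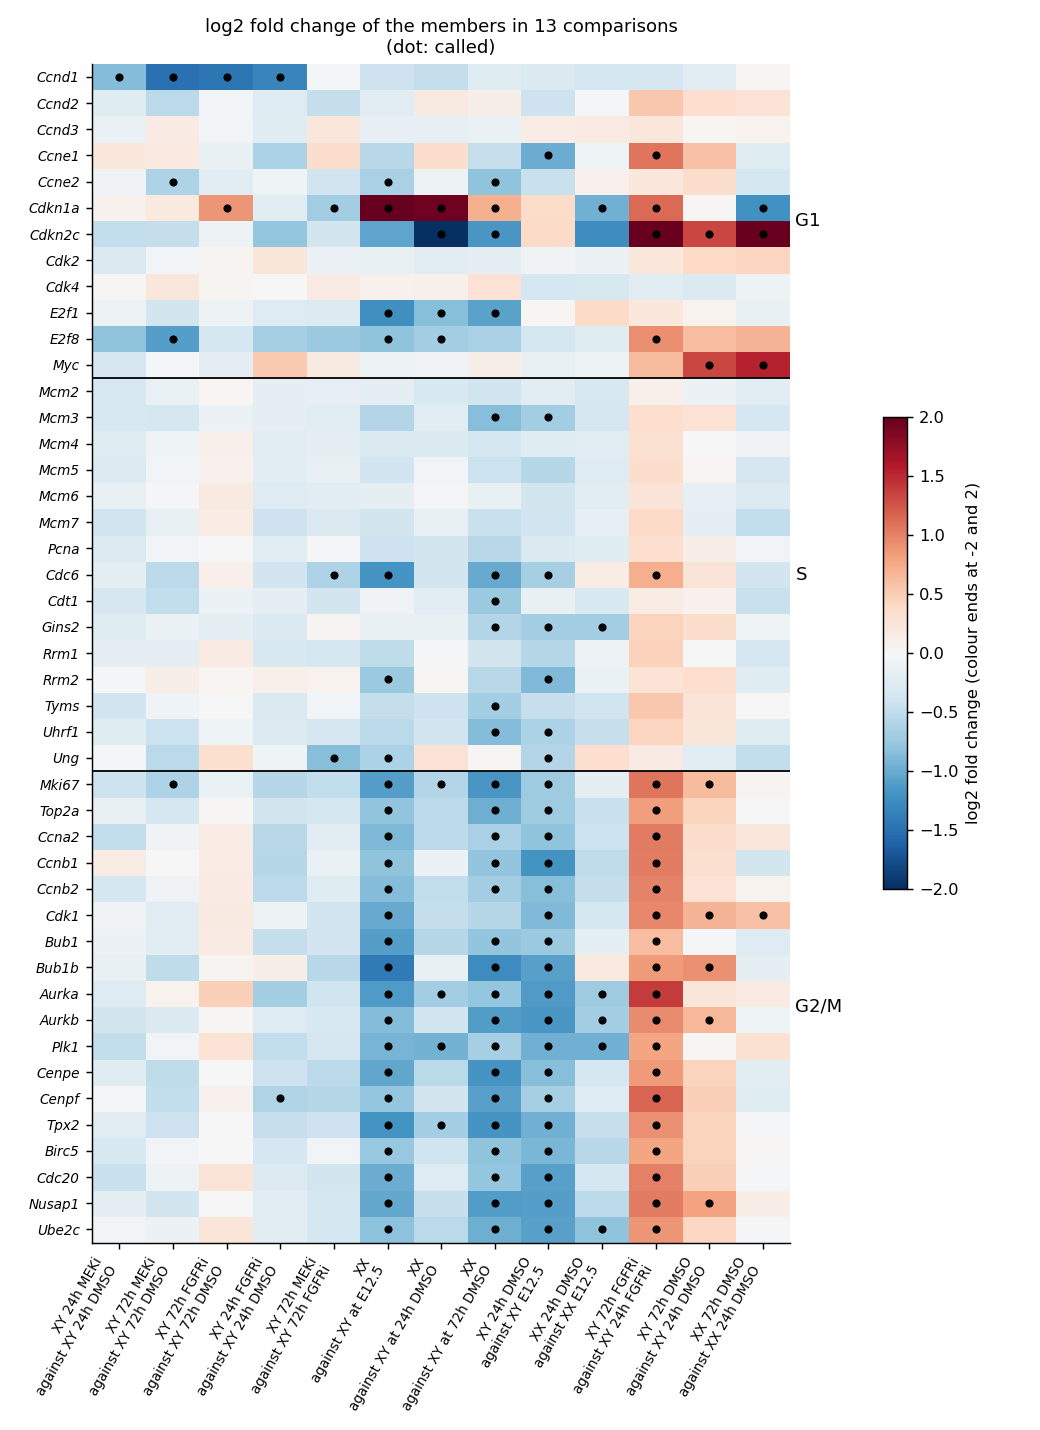
log2 fold change of every tested member (rows) in 13 comparisons (columns), with the classes apart. Colour gives the value and a dot marks a called gene. The dots of the G2/M class fill the XX against XY columns at E12.5 and 72 h, XY 24 h against E12.5 and FGFRi 72 h against 24 h, while the inhibitor columns hold few.

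Between the sexes, at E12.5 all 18 were lower in XX gonads and called, beside a background of 9.32% lower, with log2 fold changes from −0.76 (Birc5, SE 0.130, FDR 5.56e-06) to −1.42 (Bub1b, SE 0.212, FDR 3.83e-07) and a median of −0.97. For each of the 18 every XX library lay below every XY library, as it did for 1888 of all 15125 genes tested. Bub1b, a spindle checkpoint kinase, was at 17.9, 18.1, 10.1 and 18.5 CPM in XX and 39.5, 48.9, 48.8 and 41.3 CPM in XY gonads. Tpx2, a spindle assembly factor, followed with −1.19 (SE 0.130, FDR 9.56e-11). Plk1 was at 29.9, 35.3, 23.2 and 23.7 CPM in XX against 52.8, 61.4, 51.6 and 51.3 CPM in XY gonads. Mki67 was at 201, 129, 122 and 150 CPM in XX against 294, 331, 386 and 296 CPM in XY gonads.

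After 24 h in DMSO 4 of the 18 were called lower in XX gonads (background 10.3%), namely Plk1 (−0.94, SE 0.194, FDR 0.000117), Aurka (−0.70, SE 0.220, FDR 0.0124), Tpx2 (−0.68, SE 0.130, FDR 3.25e-05) and Mki67 (−0.59, SE 0.140, FDR 0.000906). All 18 remained negative, 14 of them at an FDR under 0.05, and the median was −0.51. Plk1 was at 15.1, 15.3, 10.2 and 16.6 CPM in XX and 38.1, 20.4, 25.7 and 28.8 CPM in XY gonads. XX library F6, with the lowest G2/M level (5.31), held the lowest Plk1 and the lowest Aurka (5.32 CPM against 11.5 to 12.4 CPM), and without it Aurka was not called. The Mki67 call was lost without XX library F4 or F6 or XY library M2 or M3.

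The narrowing from E12.5 to 24 h was called for 2 of the 18 genes, Bub1b (1.27, SE 0.296, FDR 0.00305) and Cdc20 (0.73, SE 0.226, FDR 0.0364), beside a background of 3.51%, and 17 of the 18 changes were positive, with a median of 0.49. Bub1b at 24 h was at 21.4, 19.6, 20.3 and 14.6 CPM in XX and 22.5, 21.9, 18.8 and 21.4 CPM in XY gonads, which overlapped. The Cdc20 call was lost without any 1 of 11 of the 16 libraries.

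At 72 h 17 of the 18 were called lower in XX gonads (background 10.8%), with a median of −0.89. The exception was Cdk1, at −0.57 (SE 0.152, FDR 0.00309), under the fold. Bub1b (−1.25, SE 0.210, FDR 3.64e-06) and Cenpe (−1.19, SE 0.108, FDR 3.27e-13) fell the furthest. Cenpe was at 87.4, 104, 86.7 and 98.7 CPM in XX and 224, 211, 203 and 224 CPM in XY gonads, and Cdk1 at 43.1, 51.3, 32.4 and 44.2 CPM and 60.3, 62.6, 70.3 and 63.3 CPM. For each of the 18 genes every XX library was again below every XY library, as for 2064 of the 15125 genes, and the Ccna2 and Plk1 calls were the only ones of the 17 lost without 1 library (Ccna2 without XX library F8 or XY library M4, Plk1 without XX library F8).

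**Figure D4:**
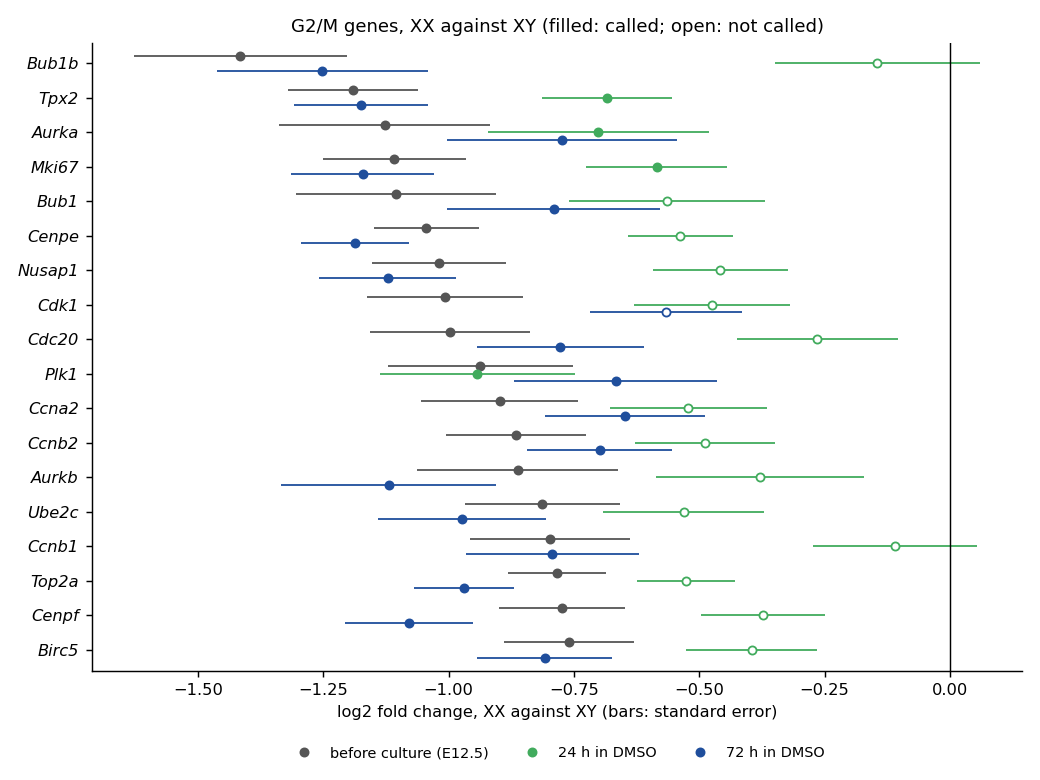
log2 fold change of the 18 tested G2/M genes in XX against XY gonads at E12.5, after 24 h and after 72 h in DMSO; points are estimates, bars standard errors, and open points genes that were not called. All values are negative, and at 24 h 4 genes are called against 18 at E12.5 and 17 at 72 h.

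Other cell types moved with the sex comparisons. Erythroid markers summed to 8701 to 15525 CPM in XX and 14791 to 18682 CPM in XY gonads at E12.5 (2 of 8 lower), to 966 to 2217 and 2749 to 7946 CPM at 24 h (7 of 8 lower) and to 140 to 585 and 314 to 1703 CPM at 72 h (3 of 8 lower). Interstitial progenitor markers summed to 789 to 907 CPM in XX and 1327 to 1603 CPM in XY gonads at E12.5 (5 of 8 lower, then 8 at 24 h and 7 at 72 h). All 8 Sertoli markers were lower in XX gonads at the 3 times, and 8, 8 and 7 of the 8 pre-granulosa markers higher. Endothelial markers were lower in XX gonads for 5 of 10 at E12.5, 9 of 10 at 24 h and 0 at 72 h, and 5, 0 and 4 of the 10 tested germ cell markers were lower and 0, 3 and 1 higher. Of 5 tested foetal Leydig cell markers, 3, 3 and 2 were lower in XX gonads and 0, 0 and 1 higher, and of 7 macrophage markers 1 was lower, at 24 h. The part of each cell type in the member differences was not tested.

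In XY gonads all 18 G2/M genes fell over the first 24 h in DMSO, beside a background of 5.5%, from −0.66 (Cenpf, SE 0.123, FDR 4.11e-05) to −1.20 (Ccnb1, cyclin B1, SE 0.158, FDR 4.62e-08), with a median of −0.94. Aurkb, a kinase of the chromosomal passenger complex, fell by 1.17 (FDR 6.01e-06) on the log2 scale. Mki67 went from 294, 331, 386 and 296 CPM to 208, 250, 172 and 163 CPM, and Plk1 from 52.8, 61.4, 51.6 and 51.3 CPM to 38.1, 20.4, 25.7 and 28.8 CPM, without overlap for either. With total counts alone as the scale, 16 of the 18 were called, and Cenpf and Top2a were not. The Cenpf call was also lost without 24 h library M4. In XX gonads 4 of 18 fell over the same time (background 2.27%), Plk1 (−0.96, FDR 0.00051), Ube2c (−0.81, FDR 0.000322), Aurka (−0.71, FDR 0.0352) and Aurkb (−0.69, FDR 0.0257), and the median was −0.45, with 11 at an FDR under 0.05. Ube2c encodes a ubiquitin-conjugating enzyme of mitosis. The Aurka and Aurkb calls were lost without 1 library (Aurka without XX E12.5 F2, F3 or F4 or 24 h F6, Aurkb without E12.5 F2 or F3 or 24 h F6). Over these 24 h all 8 erythroid markers fell in both sexes. In XY gonads 6 of 8 Sertoli, 2 of 7 macrophage and 2 of 10 germ cell markers fell, 3 of 8 interstitial progenitor markers rose, and pre-granulosa (5 of 8 higher, 2 lower) and Leydig markers (3 of 5 higher, 1 lower) moved both ways. In XX gonads 4 of 7 macrophage markers fell, 5 of 10 germ cell markers rose and 1 fell, and 2 of 5 Leydig markers rose and 1 fell. The part of these cell types in the result was not tested.

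From 24 h to 72 h with FGFRi, within set 4, all 18 G2/M genes rose, beside a background of 4.38%, from 0.62 (Bub1, FDR 0.0489) to 1.40 (Aurka, SE 0.228, FDR 1.22e-05) with a median of 0.95. Cenpf rose from 150, 119, 99.3 and 148 CPM to 280, 256, 366 and 247 CPM (1.16, SE 0.128, FDR 1.73e-09), and Ccna2 from 42.4, 41.1, 50.6 and 41.5 CPM to 74.9, 76.2, 130 and 79.7 CPM. Neither overlapped. Without FGFRi 72 h library M5, the Bub1, Aurkb and Plk1 calls were lost, and the Bub1 call was also lost without any 1 of 5 other libraries. Erythroid (5 of 8) and endothelial (8 of 10) markers fell between these groups, the latter from 236 to 402 CPM to 92.8 to 182 CPM in sum, and their part in the result was not tested.

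In DMSO from 24 h to 72 h, across the sets, 5 of 18 G2/M genes rose in XY gonads (background 4.24%) and 1 in XX gonads (4.97%). In XY gonads these were Bub1b (0.92, SE 0.195, FDR 0.000654), Nusap1 (0.80, SE 0.130, FDR 1.31e-05), Cdk1 (0.68, FDR 0.000926), Aurkb (0.66, FDR 0.0209) and Mki67 (0.64, FDR 0.000834), with a median of 0.44. The Aurkb call was lost without 24 h library M4 or M5 or 72 h library M4, and the Mki67 call without 24 h library M4 or M5 or 72 h library M2. In XX gonads it was Cdk1 (0.59, SE 0.161, FDR 0.00927), lost without 24 h library F4 or F5 or 72 h library F7 or F11, and the class median was −0.02. Of the other cell types, 5 of 8 erythroid, 8 of 10 endothelial and 6 of 10 germ cell markers were lower at 72 h in XY gonads, as were 3 of 5 Leydig markers, and 4 of 7 macrophage markers were higher. In XX gonads 5 of 8 erythroid, 3 of 10 endothelial and 8 of 10 germ cell markers were lower, and 5 of 7 macrophage and 3 of 8 interstitial progenitor markers higher. Their part was not tested. Time and set cannot be told apart in either sex.

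Genes of the same classes that are not members were counted from further lists, which were likewise chosen with earlier results known. Of 43 other G2/M genes, 36 were lower in XX gonads at E12.5, 12 at 24 h and 40 at 72 h (background 9.32%, 10.3% and 10.8%). In XY gonads 31 fell over the first 24 h (5.5%) and 35 rose with FGFRi from 24 h to 72 h (4.38%). Of 42 other S genes, 19 were lower and 1 higher in XX gonads at E12.5, 3 lower and 1 higher at 24 h, and 18 lower at 72 h. Their backgrounds were 9.32%, 10.3% and 10.8% lower, and 8.01% and 9.24% higher at E12.5 and 24 h. Over the first 24 h in XY gonads 11 of the other S genes fell (5.5%). With MEKi 1 other G2/M gene was lower at 24 h (Psrc1) and 5 at 72 h, among them Aspm (−0.74, FDR 0.0019), beside backgrounds of 1.98% and 4.19%. With FGFRi 0 were lower at 72 h and 3 at 24 h (background 0.939% and 1.59%), and at 24 h treatment and set cannot be told apart. In MEKi against FGFRi at 72 h, 8 other G2/M and 2 other S genes were lower (4.69%) and 0 of either higher (1.74%). Of 11 tested genes downstream of MEK and ERK, 8 were lower with MEKi at 24 h and 10 at 72 h (background 1.98% and 4.19%). They were led by Dusp6, an ERK phosphatase (−1.86 and −2.16). With FGFRi at 72 h 1 of the 11 was lower, Spred1 (−0.65), and 1 higher, Ier3 (1.04), beside backgrounds of 0.939% and 0.866%. With FGFRi at 24 h, across the sets, 3 were lower, Dusp4 (−1.52, FDR 0.00906) and Spred1 (−0.59, FDR 0.0171) among them, and 0 higher (background 1.59% and 1.69%).

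Of 21 other G1 regulators, 2, 4 and 3 were higher and 1, 1 and 2 lower in XX gonads at E12.5, 24 h and 72 h, beside backgrounds of 8.01%, 9.24% and 9.47% higher and 9.32%, 10.3% and 10.8% lower. With MEKi 1 was higher at 24 h and at 72 h (background 1.29% and 2.29%), and 0 and 2 were lower (1.98% and 4.19%). The lower genes at 72 h were Cdk6 (−0.75, FDR 0.00217) and Rbl1 (−1.03, FDR 0.0316). With FGFRi 2 were higher and 0 lower at 24 h (background 1.69% and 1.59%), where treatment and set cannot be told apart. At 72 h none was called with FGFRi (0.866% and 0.939%). The kinase inhibitors Cdkn1c (p57) and Cdkn1b (p27) were among the higher genes in XX gonads. Cdkn1c was higher there by 2.02, 1.52 and 1.66 and Cdkn1b by 1.79, 1.76 and 2.27 at E12.5, 24 h and 72 h. Cdkn1c was also higher in XY gonads with MEKi, by 0.82 (FDR 8.99e-06) at 24 h and 0.81 (FDR 1.29e-05) at 72 h. With FGFRi at 24 h, across the sets, Cdkn1c was higher by 0.71 (FDR 0.000222). E2f7, a repressor related to E2f8, was lower in XX gonads by −1.50, −1.03 and −1.50.

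Other cell types also moved with the inhibitors. With MEKi 10 of 10 endothelial markers were lower at 24 h and 8 of 10 at 72 h, with sums of 68.8 to 90.3 CPM against 271 to 420 CPM and of 46.4 to 66.8 CPM against 102 to 213 CPM. Of the 10 tested germ cell markers 5 were higher with MEKi at 24 h, with sums of 342 to 629 CPM against 152 to 250 CPM, and 0 at 72 h. With FGFRi at 24 h, across the sets, 4 of the 10 were lower and 1 higher, with sums of 50.6 to 105 CPM. Of the 8 Sertoli markers 4 were lower with MEKi at 72 h against DMSO and 8 against FGFRi, with sums of 571 to 859 CPM with MEKi, 813 to 1388 CPM in DMSO and 1273 to 2433 CPM with FGFRi. Of 5 tested foetal Leydig cell markers 3 were higher with MEKi at 72 h, with sums of 951 to 1441 CPM against 518 to 743 CPM in DMSO. Macrophage markers were lower with FGFRi (7 of 7) and MEKi (6 of 7) at 72 h, and for 3 and 1 of 7 at 24 h. Their part in the member differences, Ccnd1 and Cdkn1a included, was not tested.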

How the data were processed

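Somatic cells of 40 gonad samples were profiled by 3′ RNA sequencing with unique molecular identifiers (UMIs). The authors mapped the reads to GRCm39 with GENCODE genes, removed UMI duplicates with scPipe and Rsubread and summed the lanes, and the deposited values are raw UMI counts per gene; versions are not given in the sources used here, and the written methods describe germ cell libraries. The group of 1 library, XY 24 h MEKi M2, was read from the deposited barcode list. No deposited per-sample column was left out.

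Genes were filtered with filterByExpr, scaled by TMM and tested in edgeR 4.0.16 (R 4.3.3) by the quasi-likelihood test in 1 model of 10 groups over all 40 libraries, with Benjamini-Hochberg adjustment over 15125 genes, and calls needed an FDR under 0.05 and a fold of 1.5. Class levels are means of log2 CPM with a prior count of 2. Alternatives were RLE scaling, total counts, no filter, DESeq2 1.42.0, limma 3.58.1 (voom with quality weights and treat, which tests against the fold of 1.5 itself), only the groups compared, a replicate block, leaving out each library, and a prior count of 0.5. The fit was checked on simulated data. No pair of libraries within a group agreed within sampling noise. Libraries came from pooled gonads, so p-values measure the spread between these pools. Counting intervals cover counting error only.

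The members and all lists were chosen with earlier results of these data known. Library values were to be given for G1 members called with an inhibitor against DMSO and, of S and G2/M members, the 3 with the lowest FDR with MEKi at each time; in each comparison the called members with the 2 largest increases and decreases and the ends of a class were to be named. Other members and library values were chosen after their values were seen. Promoter windows are from RefSeq on GRCm38.p6 and gene positions from GENCODE on GRCm39; they were not mixed. Reads of Ccnd3, Pcna, Tyms, Ccnb1 and Ccnb2 may be shared with pseudogenes, and Top2a and Mcm7 overlap small RNA genes.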

Additional observations from a re-analysis of the deposited data

Results flagged for a closer look

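In groups of 4 libraries, the gap of a library to the nearest other was divided by the range of the 4 values. A library was marked when this ratio exceeded Dixon's 95% critical value, which chance passes in about 1 of 20 groups. Of 170 groups of values checked, 11 were marked. Ccnd1 was at 136 CPM in XX 24 h DMSO library F5 (others 68.8 to 74.5), at 222 CPM in XY 24 h DMSO library M3 (85.6 to 92.0) and at 177 CPM in XY 72 h DMSO library M5 (79.3 to 87.6). Ccna2 was at 50.6 CPM in XY 24 h FGFRi library M4 (41.1 to 42.4) and at 130 CPM in XY 72 h FGFRi library M5 (74.9 to 79.7). Ccne2 was at 16.6 CPM in XY 72 h MEKi library M4 (26.8 to 28.4), Mcm7 at 119 CPM in XY 24 h MEKi library M2 (140 to 142) and Mki67 at 230 CPM in XY 72 h MEKi library M3 (188 to 195). The G1 level was 5.44 in XY 24 h MEKi library M4 (5.25 to 5.27), and the G2/M level was 5.31 in XX 24 h DMSO library F6 (5.55 to 5.60) and 6.93 in XY 72 h FGFRi library M5 (6.35 to 6.41).

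The difference between XX and XY gonads changed from E12.5 to 24 h, by edgeR's test of the change itself, for Bub1b (1.27), Cdc20 (0.73), Rrm2 (0.76), Ung (0.93) and Cdkn1a (−1.34). The first 4 were lower in XX gonads at E12.5, and Cdkn1a was higher.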

How the results depend on the processing

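Of 171 member differences, all kept their direction and call with RLE scaling, 170 with DESeq2, 163 with no filter, 159 with total counts and 162 of 169 with only the groups compared. DESeq2 called 0 members with MEKi at 24 h in place of 1, and total counts called 6 with FGFRi at 24 h in place of 2. The paper's written methods, which describe germ cell libraries, used voom with quality weights and treat at a fold of 1.5. limma's treat, stricter by construction, called 0 members with MEKi at 24 h, MEKi at 72 h, FGFRi at 72 h, FGFRi at 24 h, MEKi against FGFRi, XX 24 h against E12.5, XY DMSO 72 h against 24 h and the change of the sex difference. It called 6, 1 and 7 for XX against XY at E12.5, 24 h and 72 h, 7 for XY 24 h against E12.5, 2 for FGFRi 72 h against 24 h and 2 for XX DMSO 72 h against 24 h. Over all genes treat called 0 to 1156 genes where edgeR called 213 to 3067, over 1.5 times fewer in each comparison, and no filter gave 350 against 213 for the change of the MEKi effect. With a prior count of 0.5 the G1 level of XX 24 h DMSO was 5.32 in place of 5.42.

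Without each library in turn, the members called ranged from 0 to 2 with MEKi at 24 h, 3 to 7 with MEKi at 72 h, 1 to 2 with FGFRi at 72 h, 1 to 4 with FGFRi at 24 h and 1 to 5 for MEKi against FGFRi. They ranged from 23 to 27, 6 to 12 and 24 to 31 for XX against XY at E12.5, 24 h and 72 h, 24 to 26 and 4 to 9 for 24 h against E12.5 in XY and XX gonads, 18 to 23 for FGFRi 72 h against 24 h, 4 to 8 and 3 to 4 for DMSO 72 h against 24 h in XY and XX gonads, 0 to 0 for the change of the MEKi effect and 4 to 7 for the change of the sex difference. Cdkn1a with MEKi at 24 h, 0.09, turned to −0.06 without DMSO library M3 and to −0.18 without MEKi library M2, over a range of −0.18 to 0.21 without each library; the cause was not tested.

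Same-numbered libraries did not deviate together (r −0.16 to 0.12), so numbers were not taken as pairs. With the replicate block, members called were 0 with MEKi at 24 h, 8 with MEKi at 72 h, 7 for MEKi against FGFRi and 1 for XX 24 h against E12.5, and within 1.5 times in the other 5 planned comparisons. Over all genes the block gave 263 against 495 with MEKi at 24 h, 1353 against 2178 for XY and 587 against 1169 for XX 24 h against E12.5, and 501 against 1014 for FGFRi 72 h against 24 h. A block fit of the change of the MEKi effect, chosen after seeing the data, called 0 members and gave 37 genes against 213. No paired analysis was possible for XX against XY, XX DMSO 72 h against 24 h and the change of the sex difference because these groups share fewer than 2 numbers.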

Other observations

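Genes that p53 is known to switch on were counted as well, since Cdkn1a is one of its best known targets. Of 15 tested, XX gonads had 1 higher and 1 lower than XY gonads at E12.5, 2 higher and 1 lower at 24 h, and 2 higher and 2 lower at 72 h, beside backgrounds of 8.01% and 9.32%, 9.24% and 10.3%, and 9.47% and 10.8%. The higher genes were Trp53inp1 at E12.5 (0.61, FDR 0.0302), Btg2 (0.96, FDR 4.17e-07) and Sesn2 (0.65, FDR 0.0495) at 24 h, and Pmaip1 (1.36, FDR 0.00332) and Sesn2 (0.85, FDR 0.0222) at 72 h. Bbc3 was lower at 72 h (−1.0, FDR 0.0349). Phlda3, an Akt inhibitor, was lower in XX gonads at each time, by −1.65 (FDR 3.32e-06), −1.12 (FDR 7.96e-05) and −0.97 (FDR 0.00196) in edgeR's test. Cdkn1a was higher there by 3.29, 1.95 and 0.70. With FGFRi at 72 h, where Cdkn1a rose, 1 of the 15 rose, Sesn2 (1.09, FDR 0.0245), and 0 fell (background 0.866% and 0.939%). With FGFRi at 24 h, across the sets, 2 were higher and 0 lower (background 1.69% and 1.59%). With MEKi, Plk2, a polo-like kinase, fell by 0.86 (FDR 0.00208) at 24 h and 0.62 (FDR 0.0119) at 72 h on the log2 scale. It was the only called gene of the list at either time, beside backgrounds of 1.98% and 4.19% lower. The part of p53 in the Cdkn1a differences was not tested.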
